A study of Mus musculus with 24 samples.

Results

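T cell receptor gene segments are the pieces of the genome from which the receptor of a T cell is assembled. They were taken here by name, as every gene called a V, D, J or C segment of the alpha, beta, gamma or delta locus that was not at 0 in every library. The table held 268 such names. Of these, 187 had a value other than 0 in at least 1 library and 81 were at 0 in every library. These 187 are among 32904 genes not at 0 everywhere, of 46078 in all. By their names, 155 belonged to the alpha or beta locus, 23 to the gamma or delta locus, and 9 were V segments that can join either an alpha or a delta chain.

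The RNA came from the whole spleen of 24 mice with B cell acute lymphoblastic leukemia (B-ALL), with 6 mice in each of 4 groups and 1 library per mouse. All mice were labelled as male C57BL/6J, 20 weeks old, and the study injected them with syngeneic BCR-ABL leukemia cells that carry GFP. The AL group ate ad libitum and received vehicle, which makes it the control. The FMD group received cycles of a fasting-mimicking diet with vehicle, the AL + VC group ate ad libitum and received vincristine, a drug that blocks microtubules, and the FMD + VC group received both. FMD + VC, AL + VC and FMD were each compared with the same AL mice, so these comparisons share their controls. No T cells were sorted, so a level is that of a whole leukemic spleen, and fewer cells of a type cannot be told apart from less RNA per cell.

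A T cell builds its receptor during development by joining 1 V, 1 J and, in beta and delta chains, 1 D segment on the DNA. The joined exon is then spliced to a constant region gene (C), which is the longest part of the message and is shared by the cells that use that chain. Most T cells of the mouse spleen carry an alpha and a beta chain, and a minority carry a gamma and a delta chain. The delta locus lies inside the alpha locus, so that a joined alpha chain removes the delta genes from that chromosome. Segments can also be transcribed before they are joined, from their germline DNA, in T cell precursors and to some degree in other lymphoid cells.

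The sequence of a segment sets how well it can be counted. The libraries were read in stretches of 50 bases from 1 end, and a read was counted only where it lay inside a gene. The 4 D segments are the shortest genes of the set, and all were at 0 in every mouse. They are printed as 1 annotated transcript each, 5′ to 3′ (GENCODE annotation, GRCm38), to show that each is shorter than a read. Another transcript of Trdd1 is annotated with 11 bases. Trbd1 and Trbd2 lie at chr6:41533201-41533212 and chr6:41542163-41542176 and Trdd1 and Trdd2 at chr14:54113468-54113476 and chr14:54122226-54122241, all on the plus strand.
Trbd1: gggacagggggc
Trbd2: gggactgggggggc
Trdd1: atggcatat
Trdd2: atcggagggatacgag

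J segments sit at the length of a read. Trbj1-2, of 48 bases (chr6:41534001-41534048, plus strand), was at 0 in every mouse, while its neighbour Trbj1-3 (chr6:41534323-41534372, plus strand), with annotated transcripts of 50 and 54 bases, had values. Lengths and shared stretches given below are those of the longest transcript of a segment. The other J segments printed are those to which results below refer. They are Trgj2 of the gamma locus (chr13:19311245-19311304, minus strand), Trdj2 of the delta locus (chr14:54136779-54136837, plus strand), and Traj18 and Traj23 of the alpha locus (chr14:54200777-54200842 and chr14:54196081-54196140, plus strand).
Trbj1-2: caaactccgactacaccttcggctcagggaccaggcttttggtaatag
Trbj1-3: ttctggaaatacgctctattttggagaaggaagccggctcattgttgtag
Trgj2: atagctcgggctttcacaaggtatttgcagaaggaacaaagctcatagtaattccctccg
Trdj2: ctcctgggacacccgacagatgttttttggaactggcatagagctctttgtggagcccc
Traj18: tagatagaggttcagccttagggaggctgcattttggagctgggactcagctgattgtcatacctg
Traj23: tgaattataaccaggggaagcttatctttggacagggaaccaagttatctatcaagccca

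Constant region genes of the same kind are near copies of each other. Stretches of 90 bases are shown in which capitals mark the bases that differ within the set. The Trbc1 and Trbc2 stretches (chr6:41538457-41538546 and chr6:41546969-41547058, plus strand) differ at 1 base. The first 90 bases of Tcrg-C1 (chr13:19214103-19214192, plus strand), Tcrg-C2 (chr13:19307462-19307551, minus strand) and Tcrg-C3 (chr13:19260885-19260974, plus strand) differ at 2 positions.
Trbc1: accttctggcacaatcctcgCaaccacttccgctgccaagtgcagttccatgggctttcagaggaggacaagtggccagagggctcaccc
Trbc2: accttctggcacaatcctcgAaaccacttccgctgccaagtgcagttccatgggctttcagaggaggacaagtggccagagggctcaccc
Tcrg-C1: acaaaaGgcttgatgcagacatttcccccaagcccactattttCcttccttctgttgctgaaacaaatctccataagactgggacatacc
Tcrg-C2: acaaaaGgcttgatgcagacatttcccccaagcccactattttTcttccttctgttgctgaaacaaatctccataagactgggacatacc
Tcrg-C3: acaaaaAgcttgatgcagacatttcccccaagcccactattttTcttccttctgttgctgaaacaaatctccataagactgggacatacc

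The first 259 bases of Trbc1 and Trbc2 are identical, and 40.5% of the 50-base stretches of Trbc1 also occur in another transcript. That share was 44.0% for Trbc2, 34.2% for Tcrg-C1, 25.4% for Tcrg-C2, 39.5% for Tcrg-C3 and 5.92% for Trdc. It was 0 for Trac and for Tcrg-C4, so these are the constant region genes whose reads belong to 1 gene only. Values of the others are uncertain to the extent that reads from a shared stretch were dropped or split.

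Over all 267 segments matched to the annotation, length and uniqueness went with being read at all. Of the 16 segments shorter than 50 bases, 2 had a value (12.5%), namely Trbj1-1 and Trbj2-3, against 185 of 251 longer segments (73.7%). Among the Traj segments 0 of 4 short ones and 52 of 56 longer ones had a value, and among the Trbj segments it was 2 of 8 and 6 of 6. Uniqueness separated the Trav segments, many of which exist in near-identical copies. Only 4 of 42 Trav segments whose every 50-base stretch recurs in another gene had a value, against 70 of 86 with a stretch of their own. Zeros also occurred among segments that could be read, with 16 such Trav and 6 such Trbv segments. For a segment shorter than a read or shared in every stretch, a 0 does not show that it was unused.

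**Figure D1:**
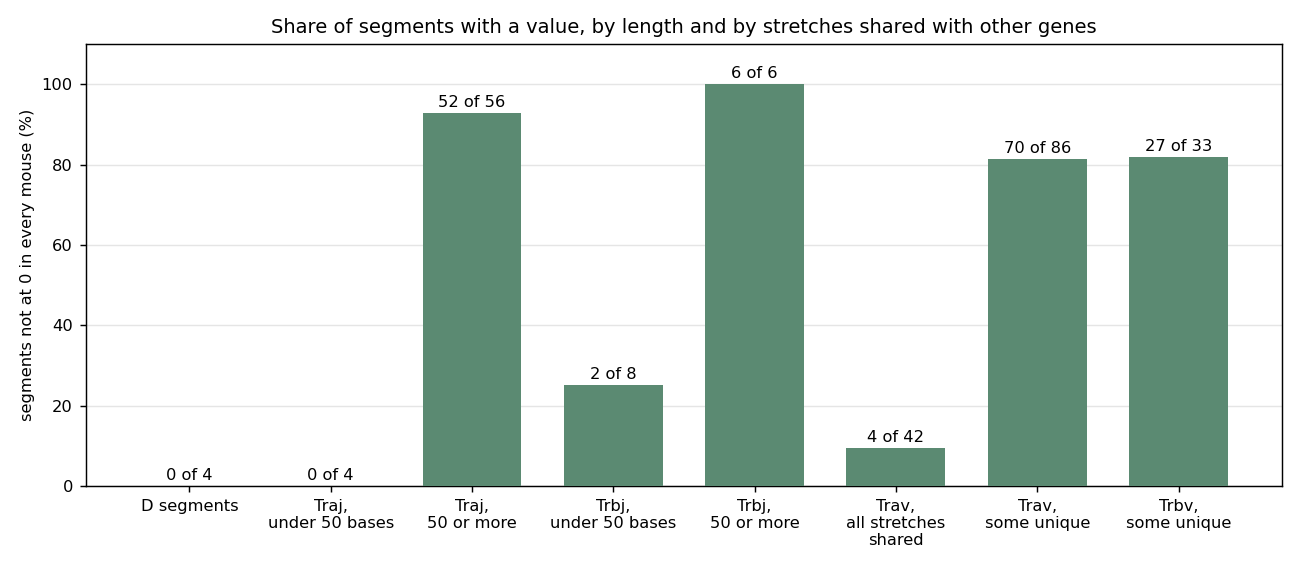
Share of segments with a value other than 0 in at least 1 of 24 mice (percent, y axis). Bars are grouped by length against the 50-base read and by whether 50-base stretches recur in other genes (x axis). Segments of 50 bases or more were read in 73.7% of cases, shorter ones in 12.5%.

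The deposited values are regularized log2 levels (rlog), on which a difference of 1 is a doubling, with genes of few reads drawn toward their own mean. Comparisons used limma over the genes whose mean rlog reached 3.32, which is log2 of 10, and this kept 17 of the 187 segments (10 alpha or beta, 6 gamma or delta, and Trav15-2-dv6-2). The remaining 170 are below it, from Tcrg-V1 at a mean of 3.29 downward, while Trgv2 at 3.33 is the lowest inside. Those were tested in a second fit with no minimum, over all 32904 genes. An adjusted p under 0.05 is called a rise or a fall.

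The constant region genes moved in opposite directions between AL and FMD + VC. Trac, the constant region of the alpha chain, rose, while Trdc and the gamma constant region genes Tcrg-C1, Tcrg-C2 and Tcrg-C4 fell. The beta constant region genes did not follow Trac: Trbc1 fell and Trbc2 did not pass the test. Of all genes tested in this comparison 19.5% rose and 20.0% fell, so a single call is common, and the median of all genes was -0.03.

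Trac lies at chr14:54220521-54224206 on the plus strand. Its rlog in AL was 7.43 at the lowest, 8.24 at the median and 8.98 at the highest. In FMD + VC it was 9.63, 10.24 and 10.70. Every FMD + VC mouse was above every AL mouse, and the log2 fold change was 1.93 (SE 0.35, n = 6 and 6, limma adjusted p = 0.000371). FMD mice lay between 8.10 and 8.94 with a median of 8.52, inside the range of AL. AL + VC mice had a median of 9.37 and ranged widely, from 7.88, within the AL range, to 10.60, among the highest FMD + VC mice.

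Trdc, the constant region of the delta chain, lies upstream of Trac at chr14:54142851-54148868 on the plus strand. Its rlog in AL was 9.13 at the lowest, 10.13 at the median and 11.03 at the highest. In FMD + VC it was 7.64, 7.71 and 7.92. The 6 FMD + VC mice were close together and all below AL, with a log2 fold change of -2.34 (SE 0.42, adjusted p = 0.000332). In FMD it was 7.60, 9.46 and 10.77, and in AL + VC 7.36, 8.01 and 9.67, so that both of these groups reached from the FMD + VC level into the AL range.

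The gamma locus carries 4 constant region genes on chromosome 13, each behind its own J segment. Tcrg-C1 (chr13:19214103-19217024, plus strand) was at 7.43, 9.48 and 9.83 in AL at the lowest, median and highest, and at 5.73, 5.83 and 6.82 in FMD + VC. The groups did not overlap, and the log2 fold change was -3.0 (SE 0.57, adjusted p = 0.00054). Tcrg-C2 (chr13:19304649-19307551, minus strand) was at 7.31, 9.71 and 10.17 in AL and at 6.03, 6.27 and 6.79 in FMD + VC. It too fell without overlap, by -2.97 (SE 0.57, adjusted p = 0.000562).

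Tcrg-C4 (chr13:19344558-19352756, plus strand), which shares no stretch with the others, was at 5.76, 7.91 and 8.51 in AL and at 5.04, 5.60 and 5.89 in FMD + VC. It fell by -1.95 (SE 0.48, adjusted p = 0.00307), and 1 low AL mouse lay within the range of FMD + VC. Tcrg-C3 (chr13:19260884-19263528, plus strand) had a mean rlog below the minimum and went from 2.24, 4.17 and 4.56 in AL to 1.93, 2.04 and 2.25 in FMD + VC. In the fit with no minimum it fell by -1.73 (SE 0.45, adjusted p = 0.00686). The gamma constant region genes thus all fell, Tcrg-C3 in the wider fit alone.

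The 2 beta constant region genes each serve their own cluster of D and J segments, Trbc1 the Trbj1 cluster and Trbc2 the Trbj2 cluster. Trbc1 (chr6:41538218-41539881, plus strand) was at 9.61, 10.87 and 11.13 in AL and at 9.33, 9.83 and 10.14 in FMD + VC. It fell by -0.83 (SE 0.29, adjusted p = 0.0278) with overlap between the groups, and the adjusted p was 0.0566, 0.0623 or 0.0649 without AL mouse 3, 6 or 33 and 0.063 without FMD + VC mouse 42. Trbc2 (chr6:41546730-41548352, plus strand) was at 9.09, 9.96 and 10.42 in AL and at 9.93, 10.29 and 10.66 in FMD + VC. Its groups overlapped and its log2 fold change was 0.40 (SE 0.20, adjusted p = 0.111). It passed without AL mouse 6 (adjusted p = 0.0491) and with a weight per library (0.32, adjusted p = 0.019).

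**Figure D2:**
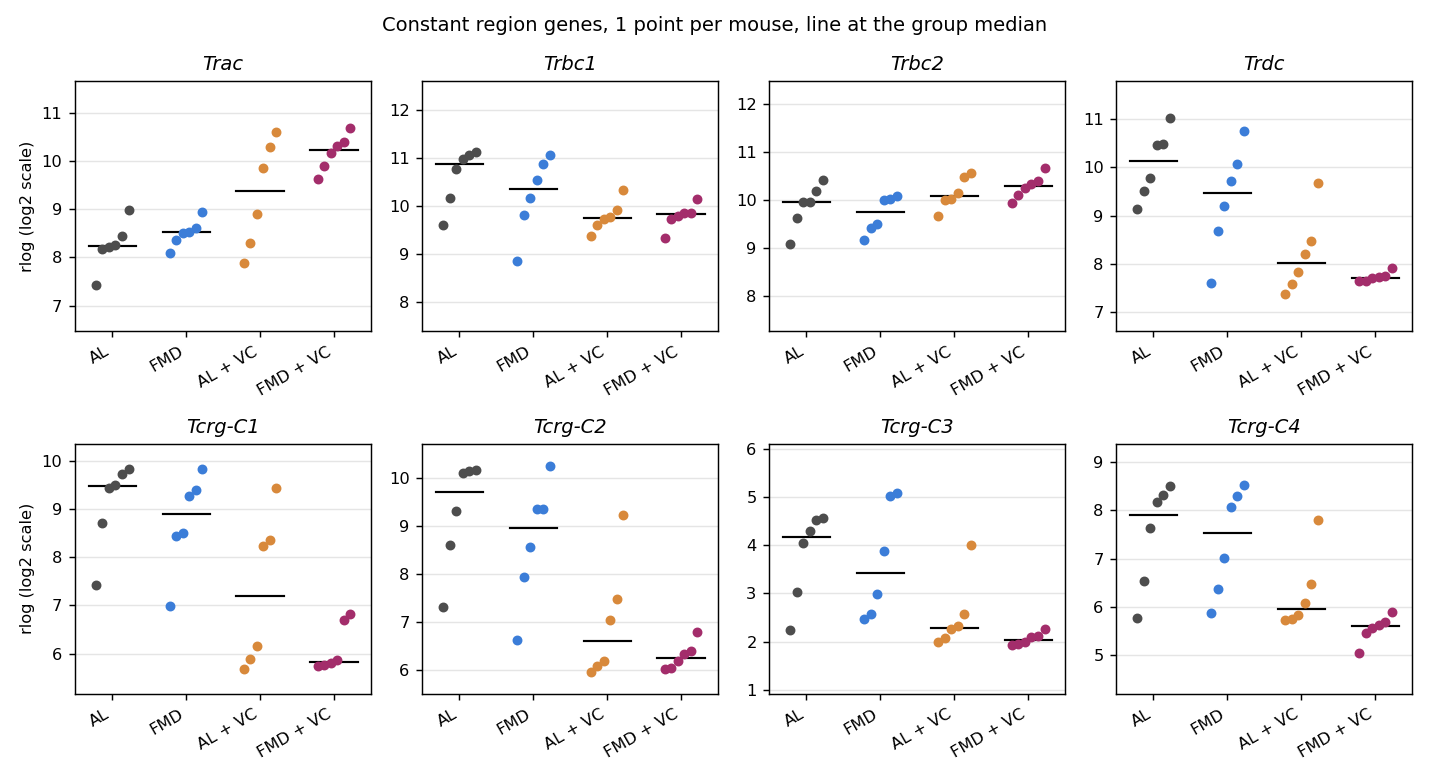
Rlog (log2 scale, y axis) of the constant region genes in each group (x axis), with 1 point per mouse and a line at the median of 6 mice. Trac lies between 9.63 and 10.70 in FMD + VC, above all AL mice, while Trdc, Tcrg-C1 and Tcrg-C2 lie below all AL mice.

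Beta V segments encode the first part of the variable domain of the beta chain, and 7 of them had a mean level above the minimum. In FMD + VC against AL, 6 of these 7 rose and Trbv20 did not pass. With Trac they make 7 of 10 alpha or beta segments that rose and 1, Trbc1, that fell, against the 19.5% and 20.0% of all genes, with a median of 1.28. All 6 gamma or delta segments above the minimum fell, with a median of -2.15. The minimum is on the mean of all mice, and the AL medians of Trbv1, Trbv2, Trbv12-2 and Trbv16, given below, lie under it. These segments reached the minimum through groups with higher levels, so the share of 7 of 10 depends in part on that filter. Counts from the fit with no minimum follow.

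Trbv3 was at 2.80, 3.51 and 4.15 in AL and at 4.33, 5.33 and 5.58 in FMD + VC, a rise of 1.62 (SE 0.28, adjusted p = 0.000236). Trbv1 was at 2.78, 3.19 and 3.35 in AL and at 3.97, 4.39 and 4.81 in FMD + VC, a rise of 1.30 (SE 0.22, adjusted p = 0.0002). Both were higher in every FMD + VC mouse than in any AL mouse. Trbv16 (2.71, 3.17 and 3.48 against 3.86, 4.77 and 5.30) rose by 1.52 and Trbv2 (2.70, 2.97 and 3.52 against 3.84, 4.38 and 5.05) by 1.35, also without overlap, at adjusted p-values of 0.00301 and 0.00241.

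Trbv13-2 was the beta V segment with the highest mean rlog, at 3.56, 4.43 and 5.35 in AL and 5.06, 5.84 and 6.14 in FMD + VC. It rose by 1.27 (SE 0.30, adjusted p = 0.00247), with some overlap. Trbv12-2 rose by 0.86 (adjusted p = 0.0109), from 2.70, 3.03 and 3.33 to 3.07, 4.14 and 4.56. Trbv20 went from 2.47, 3.54 and 4.96 in AL to 3.29, 4.07 and 6.26 in FMD + VC, a log2 fold change of 0.69 (SE 0.41, adjusted p = 0.18). Its spread in both groups was the widest of the 7.

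In the fit with no minimum, 16 of all 27 Trbv segments with a value rose and none fell, where 10.4% of all genes rose and 10.5% fell. By kind of gene, 16 of 21 Trbv genes rose, with a median log2 fold change of 1.32, and 0 of 6 Trbv pseudogenes did, with a median of -0.02. No Trbv pseudogene had a mean rlog above -0.42. The largest rises outside the minimum, named after their values were seen, were those of Trbv13-3 (1.71, adjusted p = 0.00044) and Trbv19 (1.57, adjusted p = 0.000104). Trbv13-3 went from 1.95, 2.18 and 2.65 in AL to 3.28, 3.90 and 4.54 in FMD + VC, with no overlap.

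Beta J segments did not rise with the V segments. Of the 5 read Trbj1 segments none rose and Trbj1-3, printed above, fell by -0.78 (SE 0.17, no minimum, adjusted p = 0.00199), from 1.70, 2.44 and 2.70 in AL to 1.36, 1.44 and 1.94 in FMD + VC. Trbj1-4, Trbj1-5 and Trbj1-6 had log2 fold changes of -0.10, -0.31 and -0.22 and did not pass (adjusted p = 0.652, 0.291 and 0.439). Of the 3 read Trbj2 segments Trbj2-2, named after its value was seen, rose by 0.17 (adjusted p = 0.0499). Thus 1 of 5 read Trbj1 segments fell and 1 of 3 read Trbj2 segments rose, at levels of few reads. Of all genes 10.4% rose and 10.5% fell in this fit, so such single calls do not describe a cluster.

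Alpha V and J segments are many and each was read little, which is why only Trav15-2-dv6-2 and none of the other Trav or Traj segments passed the minimum. Without a minimum, all 52 read Traj segments had a log2 fold change above 0 in FMD + VC against AL. Of these 15 rose, where 10.4% of all genes rose and 10.5% fell. The 4 Traj pseudogenes had a median change of 0.02 at a median mean rlog of -4.17, so their sign says little. Traj23 had one of the highest mean levels of its class, at 0.99, 1.12 and 1.48 in AL and 1.57, 1.84 and 2.81 in FMD + VC. It rose by 0.82 (SE 0.20, adjusted p = 0.00467), with no overlap. Traj3 and Traj26 rose by 0.52 (adjusted p = 0.014) and 0.53 (adjusted p = 0.0346), and Traj16 had 0.46 (adjusted p = 0.0546). The call of Traj26 was lost without AL mouse 3, 6 or 32 or FMD + VC mouse 21, 29, 30, 42 or 46 (highest adjusted p = 0.0763), while Traj16 passed without AL mouse 32 or FMD + VC mouse 45 or 46 (lowest adjusted p = 0.0109).

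Of the 65 read Trav segments of the alpha chain alone, 21 rose and 2 fell, beside 10.4% and 10.5% of all genes. The largest rise, named after its value was seen, was that of Trav12-2 (0.91, SE 0.21, adjusted p = 0.00355). The 2 that fell were Trav3-3 (-0.61, adjusted p = 0.0425) and Trav18 (-0.21, adjusted p = 0.00473, named after its value was seen). The fall of Trav3-3 passed in 4 of 12 fits that left out 1 mouse, those without AL mouse 25 or 32 or FMD + VC mouse 29 or 46 (highest adjusted p of the others 0.11), and not with only the groups compared (0.0515) or quantile normalization (0.0528). Trav3-3 shares 40% of its stretches with other Trav3 genes and went from 2.93, 3.59 and 4.10 in AL to 2.71, 2.86 and 3.24 in FMD + VC. Trav14-2 and Trav13-2, also among the highest of their class, had log2 fold changes of 0.05 (adjusted p = 0.918) and -0.11 (adjusted p = 0.725).

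V segments that can join alpha or delta were mixed, with 4 of 9 higher and 1 lower. Of all genes, 10.4% rose and 10.5% fell in that fit with no minimum. The 1 that fell was the one with the highest mean rlog, Trav15-2-dv6-2, from 2.94, 4.54 and 5.28 in AL to 2.32, 2.67 and 2.97 in FMD + VC. It fell by -1.66 (SE 0.40, minimum of 10, adjusted p = 0.00253), on the side of Trdc and not of Trac, and shares 38.3% of its stretches with related Trav15 genes.

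Segments of 2 semi-invariant receptors were looked up by name. In mice, NKT cells join Trav11 to Traj18, and mucosal-associated invariant T (MAIT) cells join Trav1 to Traj33. Trav11 was at 0 in every mouse and its copy Trav11d, all of whose stretches are shared, had a log2 fold change of 0.00 (adjusted p = 0.999). Traj18, printed above, rose by 0.45 (SE 0.11, adjusted p = 0.00396), from 0.25, 0.26 and 0.51 in AL to 0.56, 0.75 and 1.08 in FMD + VC. Trav1 and Traj33 did not pass, at -0.17 (adjusted p = 0.591) and 0.32 (adjusted p = 0.0886), although Traj33 passed without FMD + VC mouse 45 (adjusted p = 0.0338). Traj18 can also be joined to other Trav segments, so its value does not count NKT cells.

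Among gamma V and J segments, too, calls were falls. Tcrg-V4 had the highest mean level of the class, at 4.19, 5.47 and 6.51 in AL and 3.65, 3.80 and 3.93 in FMD + VC, and fell by -1.68 (SE 0.49, adjusted p = 0.0095) with no overlap. Trgv2 fell by -0.88 (SE 0.32, adjusted p = 0.033), with overlapping groups, and did not pass without AL mouse 3 or 6 or without FMD + VC mouse 29, 30 or 45 (highest adjusted p = 0.0833). Trgj2, printed above, sits next to Tcrg-C2 and fell by -1.60 (SE 0.43, no minimum, adjusted p = 0.00897), from 2.30, 4.0 and 4.73 to 2.00, 2.03 and 2.80. Of all read gamma segments, 5 of 7 V and 2 of 3 J segments fell and none rose. With no minimum, 10.4% of all genes rose and 10.5% fell. Tcrg-V1, whose mean rlog was the highest of those that did not pass, had -0.85 (SE 0.33, adjusted p = 0.0652) and passed without AL mouse 25 (0.00696) or 32 (0.0348).

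Delta V and J segments were few and low. Trdj2, printed above, fell by -1.0 (SE 0.23, no minimum, adjusted p = 0.00365), from 1.38, 2.14 and 2.63 in AL to 1.01, 1.03 and 1.19 in FMD + VC. Trdv5 fell by -1.02 (SE 0.22, adjusted p = 0.00169), from 2.37, 2.93 and 3.69 to 1.68, 1.97 and 2.01. Neither overlapped between the groups. Trdv5 (chr14:54148662-54149294, minus strand) lies across the end of Trdc on the opposite strand and shares 40.6% of its stretches with it, so that without the strand of the reads, a read from the shared stretch cannot be assigned to 1 of them. Trdv4 had -0.21 (adjusted p = 0.39), and Trdv1 rose by 0.43 (adjusted p = 0.0455) from a median of -0.06 to 0.15. The rise of Trdv1 was lost without any 1 of the 6 AL mice and without FMD + VC mouse 29 or 46 (highest adjusted p = 0.138), with no variance trend (0.0509) and with only the groups compared (0.0976).

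Over all 187 segments with no minimum, 59 rose and 19 fell in FMD + VC against AL. On the alpha or beta side 54 of 155 rose and 4 fell, with a median log2 fold change of 0.17, and on the gamma or delta side 1 of 23 rose and 14 fell, with a median of -0.71. The median of all genes was -0.00, and 10.4% of them rose and 10.5% fell. Low values are drawn together by the rlog, so these medians understate the size of the changes.

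**Figure D3:**
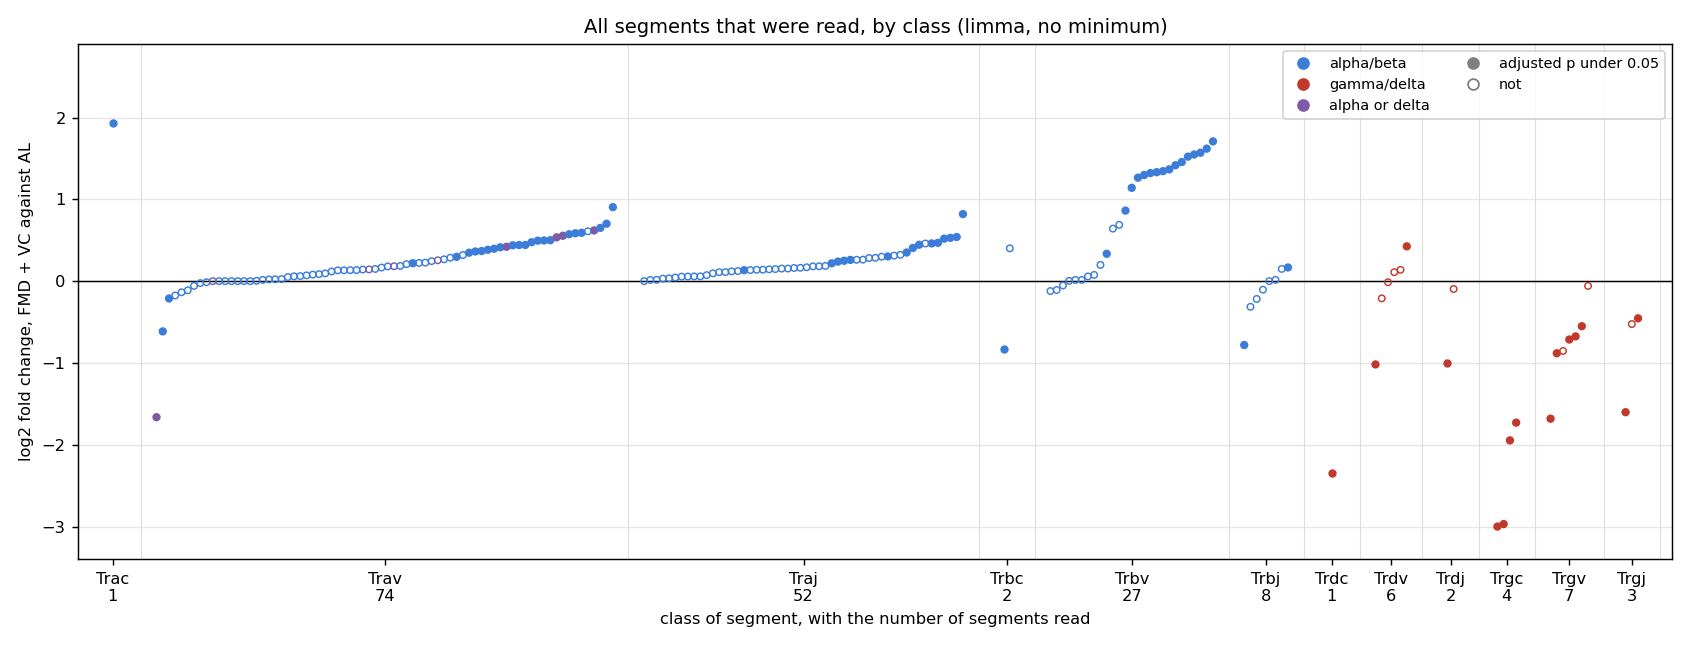
Log2 fold change in FMD + VC against AL (y axis, limma, no minimum) of each of 187 segments, 1 point each, ordered by value within its class (x axis), filled where the adjusted p was under 0.05. Filled points lie mostly above 0 in Trav, Traj and Trbv and below 0 in the gamma classes, and Trbc1 and Trac lie on opposite sides of 0.

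With vincristine and the normal diet, part of the gamma or delta segments above the minimum fell and no alpha or beta segment above it rose. In AL + VC against AL, 3.92% of all genes rose and 2.53% fell. Trdc fell by -1.88 (SE 0.42, adjusted p = 0.0254), Tcrg-C2 by -2.27 (SE 0.57, adjusted p = 0.0295) and Trgv2 by -1.09 (SE 0.32, adjusted p = 0.0461). These are 3 of 6 gamma or delta segments, and 0 of 10 alpha or beta segments passed. Tcrg-C1 (-1.82, adjusted p = 0.0549), Tcrg-C4 (-1.21, adjusted p = 0.107), Trac (1.05, adjusted p = 0.0651), Trbc1 (-0.83, adjusted p = 0.0768), Trbc2 (0.27, adjusted p = 0.381) and Trbv3 (0.86, adjusted p = 0.0587) did not. With no minimum, 0.96% of all genes rose and 0.544% fell, and the calls among segments were a rise of Trbv14 and falls of Tcrg-C2, Trdc and Trav18.

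The AL + VC mice did not form a single level. Trac was at 10.30, 9.85 and 10.60 in mice 17, 18 and 41, within the FMD + VC range, and at 8.29, 7.88 and 8.89 in mice 13, 14 and 37, within the AL range. Trdc ran the other way, at 7.36, 7.57 and 7.82 in the former and 8.20, 9.67 and 8.47 in the latter. Tcrg-C1 was at 5.68, 5.89 and 6.15 in mice 17, 18 and 41 and at 8.23, 9.44 and 8.36 in mice 13, 14 and 37. The count of gamma or delta segments that fell accordingly hung on single mice: it was 6 without AL + VC mouse 14, 0 without AL + VC mouse 17, 18 or 41 or AL mouse 33, and 1 without AL mouse 3 or 6. Alpha or beta segments that rose numbered 3 without AL + VC mouse 13 and 4 without mouse 14. Shares of all genes called in these fits without 1 mouse are not given here, so the counts have no background beside them.

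With diet added to vincristine, no gene at all was called. In FMD + VC against AL + VC 0.0% of 16557 genes passed in either direction with limma, while 1878 had an unadjusted p under 0.05, among them 6 of 10 alpha or beta and 0 of 6 gamma or delta segments. Trac was higher by 0.88 (SE 0.35, 95% interval 0.15 to 1.60, adjusted p = 0.427), and Trbv1 and Trbv16 had 0.72 and 0.95. Tcrg-C1 had -1.18 (95% interval -2.37 to 0.01, adjusted p = 0.439), Trdc -0.46 (adjusted p = 0.657) and Trbc1 -0.00. This comparison depended on how mice were weighted: with a weight per library, 7 alpha or beta segments rose, Trac by 1.40 (adjusted p = 0.00134), and 1 gamma or delta segment, Tcrg-C1, fell by -1.97 (adjusted p = 0.00206). Those weights were 0.27, 0.44 and 0.41 for AL + VC mice 17, 18 and 41, whose Trac was within the FMD + VC range. They were 1.01, 0.69 and 1.26 for AL + VC mice 13, 14 and 37. FMD + VC mouse 29 had the highest weight of all, 7.29. The share of all genes called with these weights is not given here.

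The diet alone gave no call either. In FMD against AL 0.0% of genes passed with limma, 707 of 16557 had an unadjusted p under 0.05, and 0 of the 17 segments did. Trac had 0.25, Tcrg-C1 -0.37, Tcrg-C2 -0.59, Tcrg-C4 -0.13 and Trdc -0.73 (unadjusted p = 0.0971). FMD mouse 9 was the lowest of its group for Trdc, at 7.60, and for Tcrg-C1, at 6.99. The interaction of diet and vincristine was not called for any gene (0.0%, 504 genes at an unadjusted p under 0.05), with estimates of 0.63 for Trac, 0.27 for Trdc and -0.81 for Tcrg-C1. With a weight per library, 5 alpha or beta segments were called higher in the interaction, Trac among them at 1.35 (adjusted p = 0.0431). The weights are those given for FMD + VC against AL + VC, and the share of all genes called with them is not given here. Among the 17 segments only Trbv20 had an unadjusted p under 0.05 there (log2 difference 1.5, limma adjusted p = 0.999).

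Against FMD, the combined treatment gave rises of Trac and of every Trbv segment above the minimum. In FMD + VC against FMD 12.6% of all genes rose and 10.9% fell, and 9 of 10 alpha or beta segments rose and 5 of 6 gamma or delta segments fell. Trac rose by 1.68 (SE 0.35, adjusted p = 0.00345) and all 7 Trbv segments by 0.86 to 1.44, Trbv20 among them (1.26, adjusted p = 0.0287). Tcrg-C1 fell by -2.63 (adjusted p = 0.00419), Tcrg-C2 by -2.38 (adjusted p = 0.00644), Tcrg-C4 by -1.81 (adjusted p = 0.0104), Trdc by -1.62 (adjusted p = 0.00951) and Tcrg-V4 by -1.66 (adjusted p = 0.0177). Trbc1 (-0.44, adjusted p = 0.284) and Trgv2 (-0.39, adjusted p = 0.389) did not pass. Trbc2 rose by 0.58 (adjusted p = 0.0377), a call lost without FMD mouse 7, 9 or 11 or FMD + VC mouse 21, 29, 30 or 46 (highest adjusted p = 0.0921). With no minimum, 38 of 155 alpha or beta segments rose and 2 fell, and 11 of 23 gamma or delta segments fell, beside 5.76% of all genes that rose and 4.99% that fell.

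Differences taken within a mouse remove an offset shared by all genes of a library. They do not remove the pull of the rlog toward the mean of each gene, which differs between genes. Across 7 such differences and 5 comparisons, 35 two-sided exact permutation tests were run, the smallest p that 6 against 6 mice allow being 0.00216. Trac minus Trdc was -1.81 ± 0.58 (SD, n = 6) in AL and 2.46 ± 0.33 in FMD + VC. This is a change of 4.27 (exact p = 0.00216, 0.0063 adjusted over 35). Trac and Trdc each already separated AL from FMD + VC, so this p could only be the smallest and is no further test. The difference was 1.12 ± 1.87 in AL + VC, higher than AL by 2.93 (exact p = 0.0108, adjusted 0.0223). In FMD it was -0.84 ± 1.22, which differed from AL by 0.98 (exact p = 0.0952, adjusted 0.123). FMD + VC exceeded AL + VC by 1.34, within the spread of AL + VC (exact p = 0.147, adjusted 0.174).

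Trbc1 minus Trbc2 was lower in both vincristine groups than in AL. It was 0.75 ± 0.21 (SD, n = 6) in AL, 0.53 ± 0.48 in FMD, -0.36 ± 0.46 in AL + VC and -0.49 ± 0.13 in FMD + VC. FMD + VC was below AL by -1.24 and AL + VC below AL by -1.10, in both cases with no overlap (exact permutation p = 0.00216, adjusted 0.0063). FMD + VC was below FMD by -1.02 (exact p = 0.0043, adjusted 0.0108). The difference between FMD and AL (-0.22, exact p = 0.364) and that between FMD + VC and AL + VC (-0.13, exact p = 0.494) were within the spread. Since the 2 genes share much of their sequence, this difference rests on reads from the stretches that are not shared.

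Trac also moved against Trbc2, its partner chain. Trac minus Trbc2 was -1.62 ± 0.20 (SD, n = 6) in AL, -1.19 ± 0.52 in FMD, -0.84 ± 0.88 in AL + VC and -0.09 ± 0.19 in FMD + VC. The change from AL to FMD + VC was 1.53 (exact permutation p = 0.00216, adjusted 0.0063). Trbc2 minus Trdc rose by 2.75 in FMD + VC and by 2.15 in AL + VC against AL, in both without overlap. The constant region genes of alpha and beta therefore did not change by the same amount, nor did the 2 of beta.

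**Figure D4:**
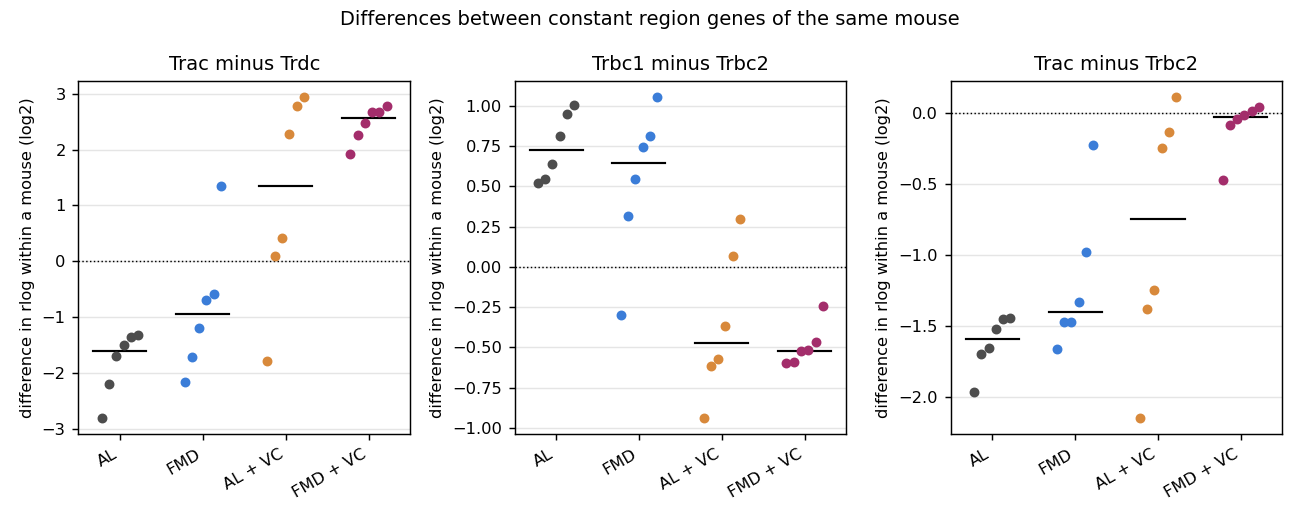
Differences in rlog between constant region genes of the same mouse (log2, y axis) by group (x axis), 1 point per mouse with the group median as a line. Trac minus Trdc goes from a mean of -1.81 in AL to 2.46 in FMD + VC, and Trbc1 minus Trbc2 from 0.75 to -0.49.

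Cd3e encodes a CD3 chain that every T cell receptor, alpha/beta or gamma/delta, needs to reach the surface, and gives a measure of T cell RNA that uses no segment. It was at 6.70, 7.59 and 8.48 in AL and at 9.36, 9.91 and 10.43 in FMD + VC and rose by 2.27 (adjusted p = 0.000299). Trac minus Cd3e was 0.61 ± 0.15 (SD, n = 6) in AL and 0.27 ± 0.07 in FMD + VC. Trac thus rose slightly less than Cd3e, by -0.34 (exact permutation p = 0.00216, adjusted 0.0063). With limma on the Cd3e baseline, this change of Trac did not pass. Trbc2 minus Cd3e changed by -1.87 and Trdc minus Cd3e by -4.61 between the same groups. Relative to Cd3e, no alpha or beta segment above the minimum was higher in FMD + VC than in AL. The Trbv segments were lower by -0.65 (Trbv3) to -1.58 (Trbv20). The rlog draws genes of few reads, such as the Trbv segments, toward their own mean. Their smaller change than that of Cd3e therefore does not show less use per T cell.

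The other genes of the receptor pathway were taken as lists, to be read against the 19.5% of all genes that rose and the 20.0% that fell. The CD3 and zeta chains rose in 4 of 4 tested genes in FMD + VC against AL (median 2.04), Cd3d by 2.15, Cd3g by 1.93 and Cd247, the zeta chain, by 1.10. The coreceptors rose in 3 of 3, with Cd8b1 at 2.98, Cd8a at 2.29 and Cd4 at 1.02. Of 14 genes of proximal receptor signalling only Skap1 (1.85), Cd6 (1.75) and Cd5 (1.65) rose, a share near that of all genes, while the kinases Lck (0.40, adjusted p = 0.215) and Zap70 (0.57, adjusted p = 0.113) did not pass. Of 8 transcription factors that act at the receptor loci, Lef1 (1.77), Ets1 (1.26) and Satb1 (0.51) rose and Tcf12 (-0.31) fell. In a V(D)J recombination and pre-receptor list, 0 of 2 tested genes passed with limma, and Ptcra and Rag2 were below the minimum.

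Genes that mark gamma/delta T cells that make interleukin 17 moved in part with Trdc. Of 5 tested genes 3 fell and 1 rose in FMD + VC against AL (median -0.90). Cd163l1, also called Scart1, went from 7.15, 9.52 and 9.83 in AL to 6.16, 6.25 and 7.72 in FMD + VC and fell by -2.50. Its relative 5830411N06Rik fell by -3.38 and the cytokine receptor gene Il23r by -0.90. Blk, a kinase of these cells and of B cells, rose by 1.13, Sox13 did not pass, and Il17a was below the minimum. The summed level of the list was 1291 to 4173 in AL and 2388 to 3059 in FMD + VC on a linear scale, so the groups overlapped. Such a sum follows its highest genes and includes Blk, which rose. Its overlap therefore does not show that the genes that fell were unchanged.

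Other markers moved with the segments as well, and their part in the results was not tested. Of all genes, 19.5% rose and 20.0% fell in the same comparison. Between AL and FMD + VC, 5 of 5 mature B cell genes rose (median 2.40, summed level 4258 to 8914 against 21854 to 33005). Of the pre-B leukemia genes 3 of 5 fell (median -1.23, 2159 to 5193 against 1041 to 2753). Those were Erg, Myb and Sox4, while Vpreb1 and Igll1 did not pass. Erythroid genes fell in 4 of 5 (median -2.17, 6285 to 55564 against 2050 to 5070), neutrophil genes in 5 of 6 (median -1.63) and macrophage genes in 0 of 5 (median -0.42). NK cell genes rose in 3 of 7 and fell in 1 (median 0.47). In the NKT cell list 2 of 4 genes rose, Cd1d1 and Tbx21, and 1 fell, Zbtb16 (median 0.33), so this list gave no single direction. No gene of these lists was at 0 in every mouse.

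Xist, the RNA of the inactive X chromosome of female cells, was high in mice labelled as male and moved with Trdc. It was at 13.88, 15.24 and 15.68 in AL and at 10.45, 10.51 and 12.99 in FMD + VC, a fall of -3.88 (adjusted p = 0.000594), while the Y-linked gene Kdm5d rose by 1.43. In AL + VC, Xist was at 14.98, 15.20 and 14.45 in mice 13, 14 and 37 and at 10.68, 10.48 and 11.11 in mice 17, 18 and 41. In FMD mouse 9, low for Trdc and Tcrg-C1, Xist was at 12.43, the lowest of its group. Its part in the levels of Trdc and the gamma segments was not tested.

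**Figure D5:**
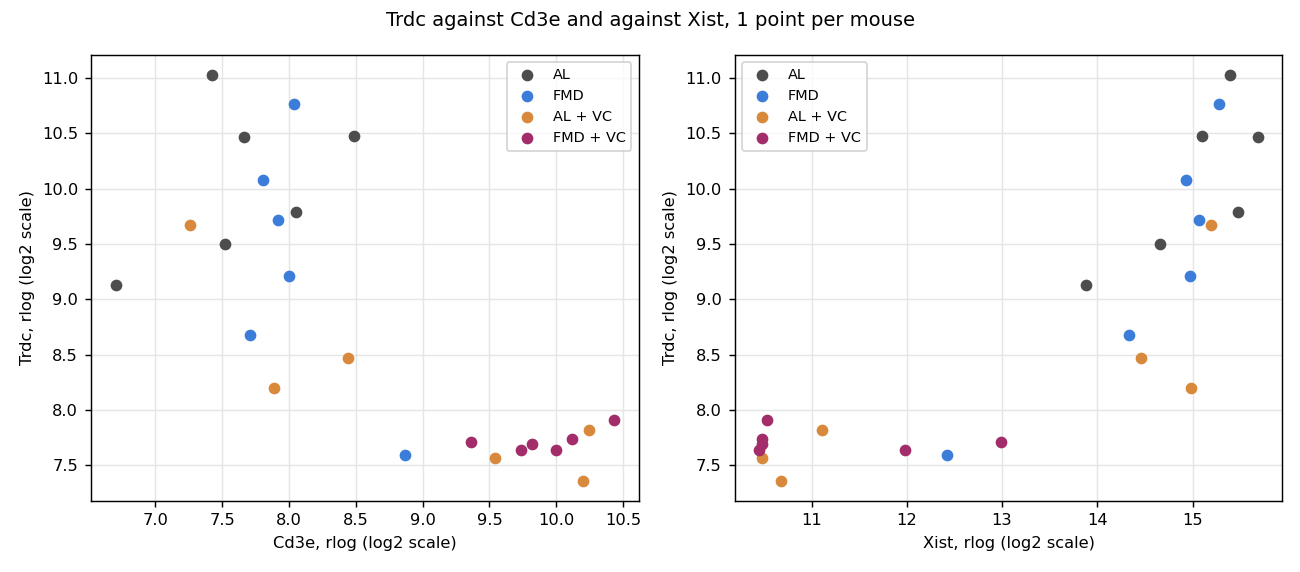
Rlog of Trdc (log2 scale, y axis) against that of Cd3e and that of Xist (x axes), 1 point per mouse, coloured by group. The 6 FMD + VC mice sit at a Trdc of 7.64 to 7.92 with Cd3e at 9.36 or more, and AL mice at a Trdc of 9.13 or more with Xist at 13.88 or more.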

How the data were processed

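Spleen RNA of 24 mice was sequenced after removal of ribosomal RNA. The authors mapped reads with HISAT2 2.1.0 to GRCm38, assigned reads to genes with HTSeq 0.6.1 (intersection-strict), and deposited log2 values, the regularized logarithm (rlog) of DESeq2 from counts scaled by size factors. Their supplementary methods name the annotation as GRCh38, although the gene names are those of the mouse. For the strand setting of counting, nothing is given in the sources used here. No counts were used, so the depth is unknown, and precision comes from the spread between mice. The median rlog per mouse was 7.73 to 7.86. limma 3.58.1 (R 4.3.3) replaced the study's count test, with 1 coefficient per group over all mice, a variance trend, and Benjamini-Hochberg adjustment over 16557 genes (32904 with no minimum). Within-mouse differences were tested by exact permutation over mice.

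Named were every constant region gene and D segment, the NKT and MAIT segments, the 4 highest of each class, the 8 largest rises and falls, and up to 4 genes per list. Segments and lists were chosen with earlier results of these data known, and 1 listed gene is not reported here. Sequences are GENCODE M21 transcripts, and shared stretches are 50-base matches in other transcripts. Fits were tested on simulated data. Figures used matplotlib 3.10.9 in Python 3.11.15.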

Additional observations from a re-analysis of the deposited data

Results flagged for a closer look

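In 84 sets of 6 mice (21 segments or differences in 4 groups), 6 held a mouse far from the other 5 by Dixon's test at the 95% level, and chance gives about 1 in 20 such sets. Trdc was at 7.92 in FMD + VC mouse 46, next to 7.74 in a group with a narrow range. AL + VC mouse 14 was high for Tcrg-C3, at 4.0 with the nearest mouse at 2.56, and for Tcrg-C4, at 7.81 with the nearest at 6.47. FMD mouse 11 was high for Trbv13-2 (5.44, nearest 4.56) and low for Trbv3 (3.38, nearest 3.88). Trbv20 was at 6.26 in FMD + VC mouse 45, with the nearest mouse at 4.15.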

How the results depend on the processing

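The rises of Trac and the falls of Trdc, Tcrg-C1, Tcrg-C2 and Tcrg-C4 in FMD + VC against AL and against FMD kept their call under every alternative run except, for Trac, the baseline of Cd3e (adjusted p = 0.315 against AL and 0.601 against FMD). No paired analysis was possible because the mouse numbers differ between groups. The depth is unknown, and most V and J segments were read too little for the minimum.

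Relative to Cd3e in the same mouse, Trac was at -0.34 in FMD + VC against AL, -0.24 in AL + VC against AL, -0.16 in FMD against AL, -0.10 against AL + VC and -0.18 against FMD. Trbc2 was at -1.87, -1.02 in AL + VC against AL, -0.85 against AL + VC, -1.27 against FMD and -0.25 in the interaction, where Trbc1 was at -0.17 and Trdc at -0.30. In FMD + VC against AL on this baseline Trbv1 was at -0.97, Trbv12-2 at -1.40, Trbv13-2 at -1.0 and Trbv16 at -0.74. Trbv2 was at -0.92, Trbv20 at -1.58 and Trbv3 at -0.65. Trbv segments have few reads, so the rlog narrows their changes, and these values do not show less use per T cell. With a weight per library, Trav14-2 was at -0.00798 in FMD + VC against AL, Trbc1 at 0.00105 against AL + VC and Trdc at -0.29 in the interaction, while Trac was at 1.35 there (adjusted p = 0.0431). With quantile normalization Trav11d was at -1.03e-05. The cause was not tested.

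Alpha or beta segments that rose in FMD + VC against AL numbered 54 with no minimum and 1 with a minimum of 50, and against FMD 38 and 2. With no minimum 1 rose in AL + VC against AL. With library weights 7 rose against AL + VC and 5 in the interaction. Those that fell with no minimum numbered 4 in FMD + VC against AL, 2 against FMD and 1 in AL + VC against AL, and with library weights 1 against FMD and 1 in AL + VC against AL. These counts follow in part from the number of genes tested. Shares of all genes called with library weights or with a minimum of 50 are not given here. Gamma or delta segments that fell with no minimum numbered 14 in FMD + VC against AL, where 1 rose, and 11 against FMD. They numbered 1 with library weights against AL + VC and 0 in AL + VC against AL with only those groups in the fit, where the adjusted p of Trdc and of Tcrg-C2 was 0.13. With no minimum and with quantile normalization, Trbc2 in FMD + VC against FMD had an adjusted p of 0.0574 and 0.0514.

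Leaving out each mouse in turn gave 0 to 4 alpha or beta segments that rose and 0 to 1 that fell in AL + VC against AL, 0 to 1 that fell in FMD + VC against AL and against FMD, and 0 to 6 gamma or delta segments that fell in AL + VC against AL. Shares of all genes called in these fits are not given here. In FMD against AL, Tcrg-C3 ranged from -0.42 to 0.13, Tcrg-C4 from -0.48 to 0.16 and Trac minus Trdc from 0.54 to 1.24. In the interaction, Tcrg-C2 ranged from -0.52 to 0.33 and Trdc from -0.0823 to 0.56. Trbc1 ranged from -0.0856 to 0.11 against AL + VC, and in FMD + VC against AL Trav14-2 ranged from -0.0822 to 0.17 and Trav11d from -0.000516 to 0.000867.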
